A study of Populus trichocarpa with 28 samples.

Results

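The RNAs described here are root transcripts whose level was far lower when RNA was selected for a poly(A) tail than when total RNA was sequenced. Members were genes whose mean sense level in the well-watered long-term root total RNA libraries was 2 CPM (sense counts scaled to library size) or more and, with 0.1 CPM added to both means, at least 16 times the mean in the matching root mRNA libraries. CPM here is a gene's sense count divided by the sum of all sense gene counts of its library, times 1e+06. Members were thus chosen by their total RNA and mRNA levels in 4 root control libraries. The rule chose 161 genes, which is 0.793% of the 20297 genes that reached 2 CPM in root control total RNA, out of 41335 genes counted.

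The libraries came from greenhouse-grown Populus trichocarpa (black cottonwood, a poplar) raised from rooted stem cuttings, and no transgene or mutant was involved. All plants were first watered to field capacity for 2 months at 20 to 35 C. Drought plants were then held at 40% of field capacity, for 25 days in the long-term experiment and for 24 hours in the short-term one, while control plants stayed fully watered. Groups of 2 libraries each were used: long-term root drought and control as total RNA and again as mRNA, short-term apex drought and control as total RNA, short-term mature leaf drought and control as total RNA, and long-term apex, young leaf and mature leaf drought and control as mRNA. The 4 root total RNA libraries held 55712373 to 67062224 sense counts, the 4 root mRNA libraries 51376870 to 58352615, the short-term apex libraries 37163762 to 60052682, the short-term mature leaf libraries 32306721 to 43672820 and the 12 long-term shoot mRNA libraries 20249489 to 29589429. The labels do not say that libraries came from separate plants, so p-values measure only the spread between these libraries, which may be technical.

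Most messenger RNAs of the plant nucleus end in a long poly(A) tail, which mRNA kits use to pull them out on oligo-dT. A total RNA library depleted of ribosomal RNA keeps RNAs with and without that tail. RNAs known to lack a stable tail include the small nuclear and signal recognition particle RNAs and the transcripts of chloroplasts and mitochondria, where short tails mark RNA for decay rather than protect it. Which of these classes any member belongs to is not known here: 0 of the 41335 gene IDs matched the RefSeq gene table at hand, so members are given by their IDs and no function, tissue marker or sequence could be attached to them.

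In the root control libraries that chose them, members had a median of 20.4 CPM in total RNA (lowest 2.01, highest 15852) and a median of 0.0292 CPM in mRNA (highest 21.4). The ratio of total RNA to mRNA, with 0.1 CPM added to each, ran between 17.95 and 5834 with a median of 104, against a median of 0.941 over all genes at 2 CPM or more. These values define the list and support nothing. At the level threshold, Potri.011G074400 (2.01 CPM) and Potri.013G138000 (2.03 CPM) were just inside, while Potri.T027100 and Potri.005G107100 (both 1.82 CPM) were just outside. At the ratio threshold, Potri.T141100 (17.95) and Potri.008G107400 (18.1) were just inside, while Potri.012G049600 (15.98) and Potri.008G023400 (14.03) were just outside.

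The drought roots, which the rule did not use, gave the same depletion. All 161 members were higher in both drought root total RNA libraries than in both drought root mRNA libraries, beside 29.3% of the 20297 genes at 2 CPM or more in root. All 161 also passed the quasi-likelihood test of edgeR, a count model for sequencing data, with p-values adjusted by Benjamini-Hochberg and a threshold of 0.05. Of all 27241 genes tested, 23.0% passed it, 11.2% as higher and 11.8% as lower in total RNA. With the number in the library titles as a replicate block, 160 members and 65.1% of all genes passed. Since 69 members had 3 or fewer counts over both drought mRNA libraries together, folds were computed from pooled counts against a floor of 3 counts over that group. With those genes at their bound, the median fold was at least 276, and 132 members reached 100-fold. The smallest folds were 4.23 in Potri.005G106600, 11.1 in Potri.T141100 and 15.0 in Potri.007G002300. The rule applied to the drought libraries alone returned 163 genes, and 154 of them were members, which is 95.7% of the members and 94.5% of the drought list.

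**Figure D1:**
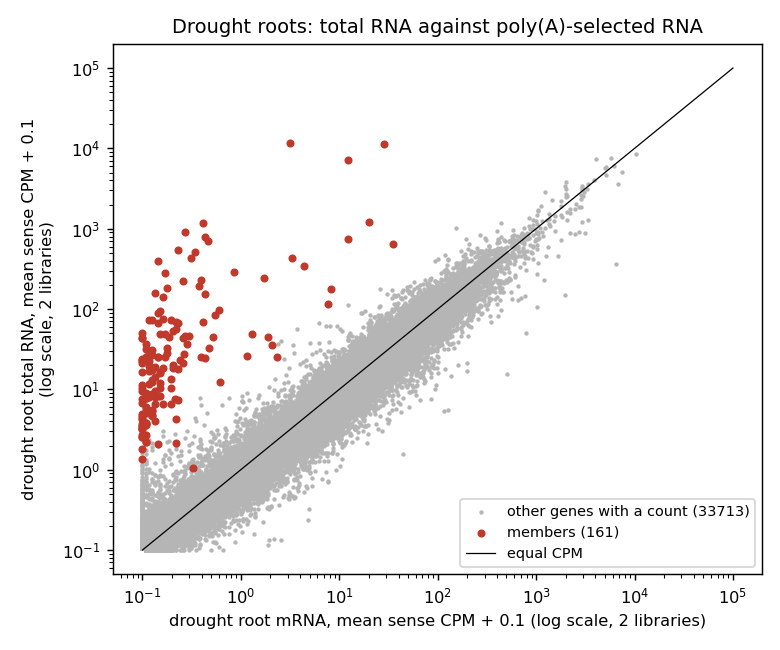
Mean sense CPM in 2 drought root total RNA libraries (vertical) against 2 drought root mRNA libraries (horizontal), both with 0.1 added and on log scales, for the 161 members and the other genes. Every member lies above the line of equal CPM, and the smallest pooled fold among them was 4.23.

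A few members took most of the reads. CPM is not divided by gene length, which the files do not give, so these values rank genes by reads and not by molecules. Potri.019G087600 had 13539.8 and 9703 CPM in drought root total RNA and 13641 and 18062 CPM in control root total RNA, where it was the gene with the most reads. In root mRNA it had 3.26 and 2.91 CPM under drought and 3.55 and 3.74 CPM in controls. In total RNA both drought libraries were below both controls, the higher one by little, and the difference did not pass the test (log2 -0.31, SE 0.25, edgeR adjusted p = 0.40).

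Potri.001G412500 had 12207 and 10698 CPM in drought root total RNA, against 7465 and 6456 CPM in control root total RNA. Both drought libraries were above both controls. It rose by 0.86 (log2, SE 0.17, edgeR adjusted p = 0.025), and it also rose in root mRNA at a far lower level, with 31.0 and 26.1 CPM under drought against 14.3 and 19.3 CPM in controls (log2 0.93, SE 0.19, edgeR adjusted p = 0.028). Neither call held without either control library.

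Potri.018G115300 differed more between libraries of 1 group than between groups, with 4512 and 9795 CPM in drought and 5711 and 11232 CPM in control root total RNA. The next in reads were Potri.019G032400 (1013 and 1414 CPM under drought, 864 and 820.4 CPM in controls), Potri.008G175700 (1212 and 1173 CPM under drought, 1318 and 1249.6 CPM in controls) and Potri.003G011600 (912 and 886 CPM under drought, 784 and 723 CPM in controls). Potri.014G157900 had 715 and 867 CPM under drought and 919 and 775 CPM in controls, and Potri.004G049600 had 707 and 791 CPM under drought and 648 and 694 CPM in controls. None of these 6 passed the test for drought in root total RNA.

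As a group, members held 3.90% to 4.89% of sense counts in the 4 root total RNA libraries and 0.0110% to 0.0168% in the 4 root mRNA libraries. They held a larger share of the short-term shoot libraries. In the short-term apex they took 8.26% and 6.55% of sense counts under drought and 10.7% and 10.3% in controls, and in short-term mature leaves 13.2% and 13.9% under drought and 15.96% and 17.2% in controls. In both tissues each drought library was below each control library. In the apex this rested on a few members. From control to drought, mean CPM went from 26638 to 3161 in Potri.011G074200, from 8415 to 957 in Potri.013G092500 and from 6305 to 837 in Potri.011G075000. These losses together exceeded the fall of the member sum, so the remaining members rose in sum. Between 3 and 8 of the 10 genes with the most sense reads in each of the 12 total RNA libraries were members.

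**Figure D2:**
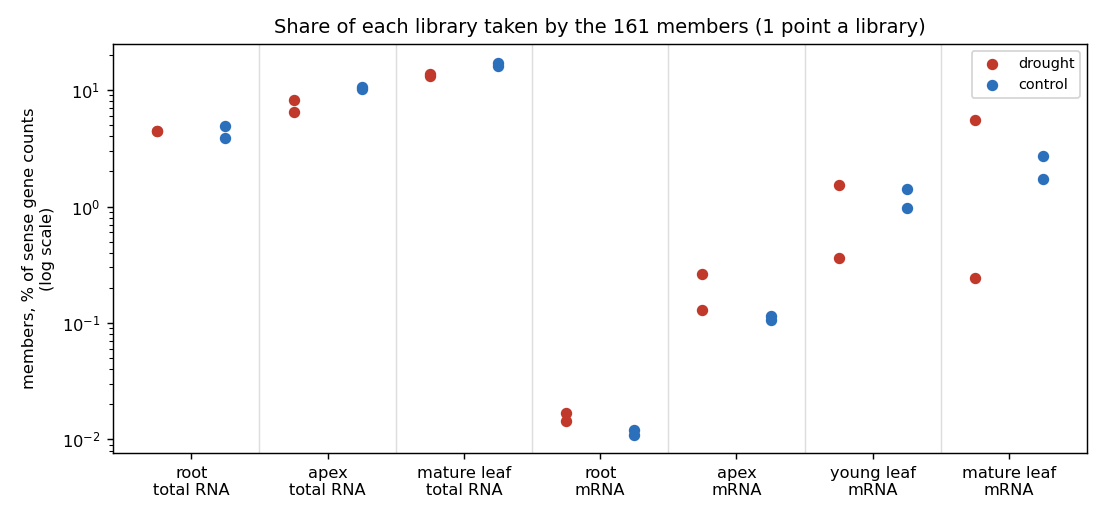
Share of each library's sense gene counts taken by the 161 members, in % on a log scale, 1 point a library, drought left of control. Root total RNA libraries sit between 3.90% and 4.89%, root mRNA libraries between 0.0110% and 0.0168%, and short-term mature leaf total RNA between 13.2% and 17.2%.

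Of the 161 members, 158 reached 2 CPM in the short-term control apex and 153 in short-term control mature leaves. Among the 20297 genes at 2 CPM or more in root, 88.4% and 81.8% did so. The median member level was 79.6 CPM in the apex and 72.5 CPM in mature leaves, beside 20.4 CPM in root control total RNA. Both apex control libraries were above both root control libraries for 120 members and below them for 31, beside 38.2% above and 51.1% below among the 20297 genes at 2 CPM or more in root. Both mature leaf control libraries were above both root controls for 100 members and below them for 45, beside 17.0% above and 72.8% below among those genes. The median log2 ratio to the root was 1.80 in the apex and 1.495 in mature leaves for members, and -0.17 and -0.89 for all genes at 2 CPM or more in root. Tissue and experiment differ together between these libraries and cannot be told apart, so these are descriptions with no test. In such bulk samples, fewer cells of a type and less RNA per cell cannot be told apart either.

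In the short-term controls, the 2 members with the most reads in either tissue were not the leading members of the root. Potri.011G074200 had 27457 and 25818 CPM in the short-term control apex and 24009 and 30387 CPM in short-term control mature leaves, beside 401 and 559 CPM in control roots. Potri.T005800 had 10050.0 and 8680.5 CPM in the control apex and 27289 and 28417 CPM in control mature leaves, beside 389 and 454 CPM in control roots. Potri.019G087600, first in the root, had 5482 and 7722 CPM in the control apex and 4876 and 1173 CPM in control mature leaves. In the drought apex it had 15462 and 6732 CPM, and in the first of those libraries it was the member with the most reads. Potri.014G157900 was lower in the shoot too, with 138 and 114 CPM in the control apex and 76.5 and 44.8 CPM in control mature leaves.

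**Figure D3:**
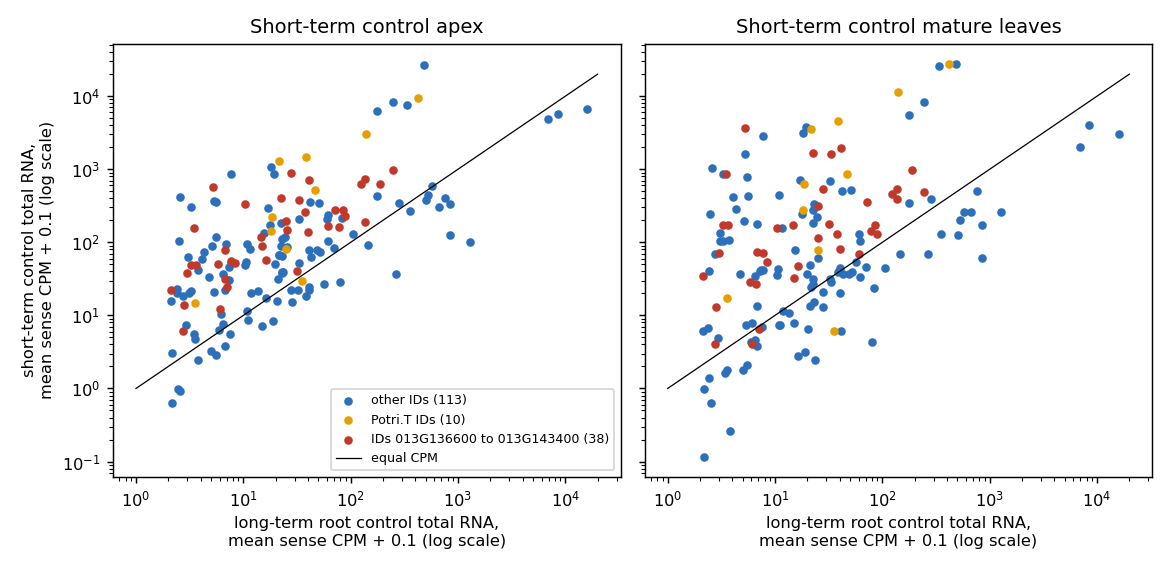
Mean sense CPM of the 161 members in short-term control apex (left) and mature leaf (right) total RNA against long-term root control total RNA, with 0.1 added, on log scales, coloured by the ID groups described in the text. Both shoot libraries were above both root control libraries for 120 of the 161 members in the apex and for 100 in mature leaves.

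Members were unevenly spread over the ID list. IDs beginning with 013 made up 48 of the 161 members (29.8%), beside 3.86% of the genes at 2 CPM or more in root. Between Potri.013G136600 and Potri.013G143400 the files list 69 IDs, of which 40 reached 2 CPM in root control total RNA and 38 were members. All 6 IDs between Potri.013G074700 and Potri.013G075200 were members, as were all 6 that reached 2 CPM between Potri.002G211100 and Potri.002G211800 and all 6 between Potri.019G027800 and Potri.019G028700. The 2 longest unbroken runs held 6 members each, Potri.013G074700 to Potri.013G075200 and Potri.013G141300 to Potri.013G141800. These spans were drawn after the values were seen. The 38 members of the long span had a median of 152 CPM in the control apex, 151 CPM in control mature leaves and 19.3 CPM in control roots. The 10 members with Potri.T IDs had medians of 371 CPM in the control apex, 749 CPM in control mature leaves and 29.9 CPM in control roots.

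Many members had no listed intron. Of the members, 67 (41.6%) had no entry in the intron files, against 9.88% of all genes at 2 CPM or more in root. Of the 92 members with an intron entry of their own, intron sense reads in drought root total RNA had a median of 3.63 per 100 sense gene reads, against 5.56 over genes with an entry. Potri.001G412500 had the highest intron CPM, at 16.7 intron reads per 100 sense reads in drought root total RNA and 16.2 in controls. Potri.018G115300 was the next in intron CPM, with 562 and 1262 intron CPM in drought root total RNA. Potri.011G074200 had nearly as many intron as gene reads, 83.7 per 100 in drought and 85.1 per 100 in control root total RNA. Intron reads outnumbered sense gene reads in 4 members (4.35% of the 92), against 1.19% of the genes with an entry.

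Antisense reads were also frequent. In drought root total RNA the antisense share of a member's reads had a median of 1.35%, against 0.0273% over genes at 2 CPM or more there, and antisense reads outnumbered sense reads in 10 members (6.21%), against 82 of those 19394 genes (0.423%). Potri.018G115200 stood apart: its sense level was 1.18 and 3.11 CPM in drought and 1.23 and 3.46 CPM in control root total RNA, while its antisense level was 12030 and 27934 CPM in drought and 15468 and 31376 CPM in controls. That antisense signal alone was 40.2% to 65.7% of all antisense gene reads in root total RNA. It too was low in root mRNA, at 16.5 to 42.0 CPM. Set against the sense reads of the next ID in the list, Potri.018G115300, that signal kept a narrow proportion in root only. It was 267 to 285 antisense reads per 100 in the 4 root total RNA libraries and 256 to 309 in the 4 root mRNA libraries. The range was 228 to 389 in the 8 short-term libraries and 340 to 828 in the 12 long-term shoot mRNA libraries. Whether these genes overlap is not given in the sources used here, so the sense level of Potri.018G115200 is uncertain.

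In root total RNA, 25 days of drought changed 28 of 161 members (22 rose, 6 fell). That is, 17.4% of members passed, beside 26.4% of all 27628 genes tested (12.1% rose, 14.3% fell). The median member change was 0.30 (log2), against -0.03 over all genes tested, and 2 of the 28 exceeded 2-fold. The control libraries of this comparison also chose the members, which favours high control values and hence falls. The count was 13 (7 rose, 6 fell) with library totals in place of the TMM scaling, beside 27.0% of all genes. Without drought library 68, control library 63 or control library 70 the median member change was 0.26, 0.23 and 0.40 (log2). Fewer members and fewer of all genes were called in each of these fits, so the count rests on those libraries.

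The largest fitted rise, in Potri.013G139800, did not pass the test (log2 2.52, SE 0.74, edgeR adjusted p = 0.065). This gene had 578 and 836 CPM in drought roots against 50.4 and 221 CPM in control roots. Its antisense reads were 11.5 to 132 per 100 sense reads in the 4 root total RNA libraries, so its sense change is uncertain. Potri.013G143200 rose, with 11.9 and 21.2 CPM in drought roots against 4.04 and 6.18 CPM in control roots (log2 1.84, SE 0.38, edgeR adjusted p = 0.029). Potri.016G129800 rose, with 5.55 and 7.47 CPM under drought against 3.11 and 4.19 CPM in controls (log2 0.98, SE 0.26, edgeR adjusted p = 0.049). Potri.014G040900 fell, with 5.95 and 4.60 CPM under drought against 13.5 and 13.4 CPM in controls (log2 -1.21, SE 0.17, edgeR adjusted p = 0.013). Potri.002G211600 fell, with 10.6 and 9.94 CPM under drought against 24.5 and 17.6 CPM in controls (log2 -0.89, SE 0.18, edgeR adjusted p = 0.029). In all 5 the drought libraries lay on one side of both controls, and each of the 4 calls was lost when at least 1 of the control libraries was left out.

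In root mRNA, 34 of the 161 members had enough counts to be tested and 3 rose, beside 27.4% of all 27499 genes called (12.7% rose, 14.7% fell). They were Potri.001G412500, Potri.019G032400 and Potri.007G002300. Without either control library these calls were lost, and far fewer of all genes passed too.

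In the short-term apex, 24 hours of drought changed 83 of 161 members (39 rose, 44 fell), or 51.6%, beside 62.3% of all 27027 genes tested (30.0% rose, 32.3% fell). The median member change was -0.05 (log2), and 35 of the 83 exceeded 2-fold. The largest falls were shared by members with very different read numbers. Potri.014G040900 had 2.02 and 1.64 CPM in the drought apex against 22.8 and 20.6 CPM in the control apex (log2 -3.62, SE 0.20, edgeR adjusted p = 5.5e-05). Potri.013G092500 had 1118 and 797 CPM under drought against 8463 and 8367 CPM in controls (log2 -3.18, SE 0.27, edgeR adjusted p = 0.00017). Potri.011G074200 had 3486 and 2835 CPM under drought against 27457 and 25818 CPM in controls (log2 -3.12, SE 0.26, edgeR adjusted p = 0.00017). In all 3 the drought libraries were far below both controls, and the calls held under every alternative run.

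Potri.013G139800 rose in the apex, with 1218 and 598 CPM under drought against 138 and 237 CPM in controls (log2 2.23, SE 0.44, edgeR adjusted p = 0.0062). Potri.013G140100 had 956 and 99.4 CPM under drought against 33.2 and 46.7 CPM in controls (log2 3.69, SE 1.16, edgeR adjusted p = 0.047). The high value came from 1 drought library, and the call was lost under 6 of 9 alternatives. Both genes had antisense reads that varied from library to library (14.2 to 196 and 22.7 to 400 per 100 sense reads in the 8 short-term libraries), so their sense changes are uncertain.

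In short-term mature leaves, drought lowered 20 of the 159 members tested and raised none by this test, or 12.6%, beside 17.9% of all 25054 genes tested (8.73% rose, 9.20% fell). The median member change was -0.34 (log2), against -0.000155 over all genes. DESeq2 called 40 (1 rose, 39 fell), beside 21.4% of all genes (2587 rose, 2786 fell). Without control library 19 or without control library 49 the median member change was -0.23 and -0.44 (log2). Calls were lost there for members and for nearly all genes tested, so the count rests on both of those libraries. Potri.008G190300 had 0.572 and 0.477 CPM in drought leaves against 3.44 and 1.20 CPM in control leaves (log2 -2.15, SE 0.53, edgeR adjusted p = 0.038). Potri.T005700 had 232 and 223 CPM under drought against 798 and 452 CPM in controls (log2 -1.49, SE 0.26, edgeR adjusted p = 0.014). In both, the drought libraries were below both controls.

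**Figure D4:**
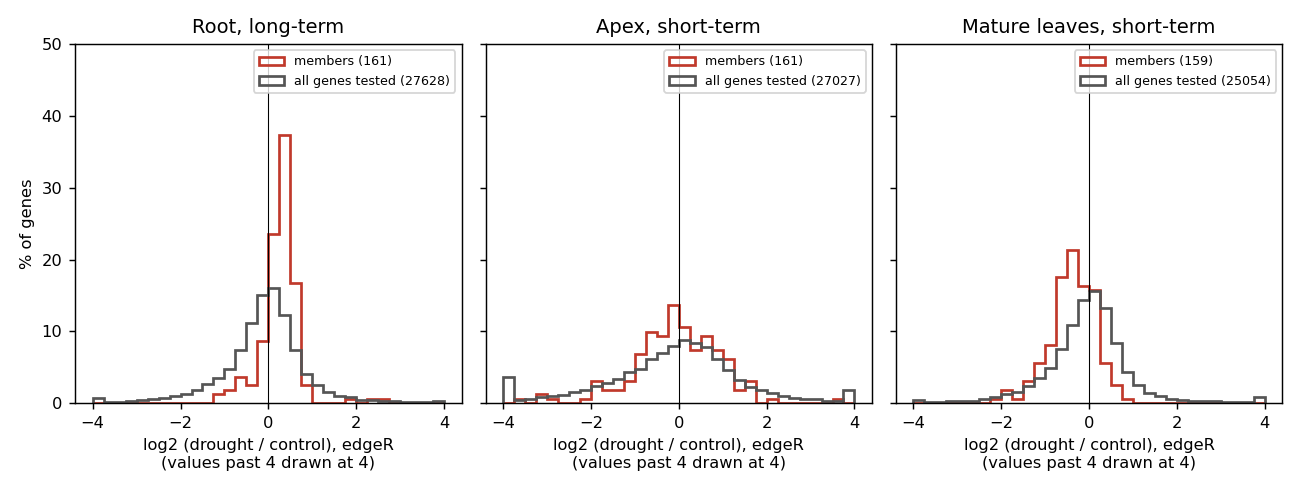
Distribution of log2 drought over control changes from edgeR, as % of genes, for members and for all genes tested in root, short-term apex and short-term mature leaf total RNA. Member medians were 0.30, -0.05 and -0.34, and the 10th to 90th percentile in roots ran between -0.21 and 0.61 for members and between -1.24 and 0.87 for all genes.

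The drought change itself was compared between apex and mature leaves with an interaction term, chosen after the data were seen. It passed for 50 of 161 members, or 31.1% (32 higher in apex, 18 lower), beside 28.3% of all 27796 genes tested (12.6% higher in apex, 15.7% lower). Without apex control library 49 the median member difference was 0.27 (log2), against 0.30 with all libraries. Fewer members and fewer of all genes were called in that fit. Both genes named next were among those lower in apex. Potri.011G074200 had 16127 and 18708 CPM in drought leaves against 24009 and 30387 CPM in control leaves, and its apex change was 2.45 lower on the log2 scale than its leaf change (SE 0.36, edgeR adjusted p = 0.0018). Potri.014G040900 was 2.79 lower in the apex (SE 0.26, edgeR adjusted p = 0.00026), while it also fell in mature leaves (log2 -0.85, SE 0.19, edgeR adjusted p = 0.028), a call lost without either leaf control library.

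**Figure D5:**
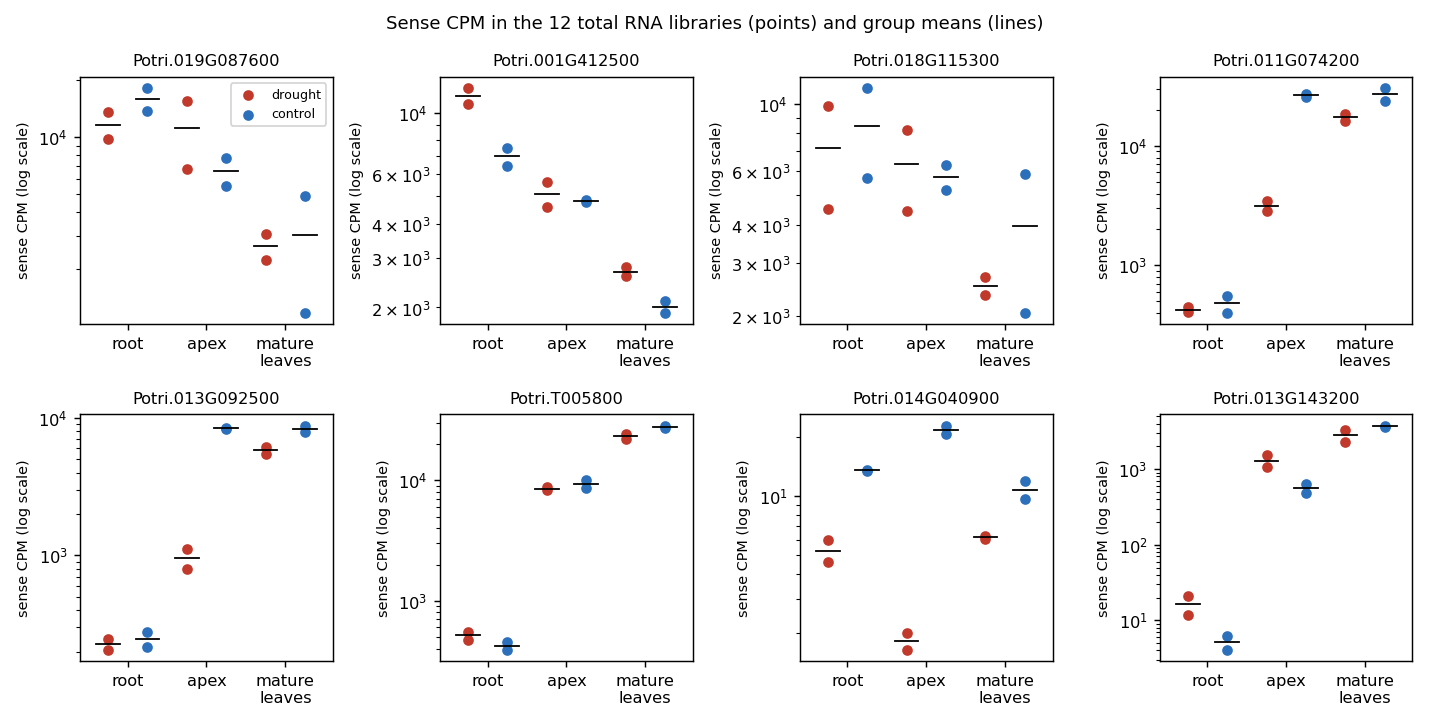
Sense CPM on log scales of 8 members in each of the 12 total RNA libraries, drought left of control, with lines at group means. Potri.011G074200 lies at 3486 and 2835 CPM in the drought apex, between 24009 and 30387 CPM in the short-term controls and at 401 and 559 CPM in control roots.

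Between the short-term control tissues, 92 of 161 members differed (26 higher in apex, 66 lower), beside 55.3% of all 26757 genes (28.1% higher, 27.3% lower). The median member difference was -0.40 (log2). With library totals in place of TMM, 106 differed (57 higher, 49 lower), beside 69.4% of all genes. The median of all genes was then 0.66 in place of 0.04, so the direction of the split depends on the scaling. Potri.T005800 was lower in apex by either scaling (log2 -2.19, SE 0.19, edgeR adjusted p = 5.6e-05). Potri.008G190300 was higher in apex, with 40.0 and 38.7 CPM there and 3.44 and 1.20 CPM in mature leaves (log2 3.52, SE 0.37, edgeR adjusted p = 0.00017).

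Most members were depleted by poly(A) selection in the shoot too, as far as libraries of the 2 experiments can be set side by side. Short-term control total RNA was at least 16 times long-term control mRNA for 153 members in apex and 146 in mature leaves. Of all genes at 2 CPM or more in those total RNA libraries, members included, 232 (1.13%) and 216 (1.17%) reached that ratio. Members made up 153 of the 232 and 144 of the 216. In 3 members mRNA was above total RNA in both tissues: Potri.013G139800, Potri.013G140100 and Potri.018G115200. Potri.013G139800 had 266 and 522 CPM in control mature leaf total RNA, beside 9045 and 13445 CPM in control mature leaf mRNA and 0.343 and 0.409 CPM in control root mRNA.

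The sense reads of that gene had an equal on the other strand. In the 12 long-term shoot mRNA libraries its antisense counts were 99.95 to 99.99 per 100 sense counts, and they differed from the sense counts by at most 247 reads. Potri.013G140100 likewise differed by at most 394 reads. In the root mRNA libraries Potri.013G139800 had 20 or 21 sense reads, beside 743 to 1309 antisense reads. The member share of long-term mature leaf mRNA was 5.49% and 0.242% in the 2 drought libraries and 1.74% and 2.72% in controls. The drought libraries thus lay on both sides of the controls. In these leaf libraries the 3 members with the most reads held 87.3% to 94.5% of the member sum. The median member had 0.105 to 0.840 CPM there, so the share does not describe the members as a set.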

How the data were processed

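Sense and antisense counts per gene and per intron entry were used as the authors deposited them, as whole-number counts. The submitters' processing notes list DESeq2, HTSeq 0.6.0 and TopHat2 2.1.0 without saying what each did. No genome build, annotation or counting option is given in the sources used here. Non-unique alignments were 0 in the files that list them, so reads shared by near-identical genes may be missing. Closing lines that name no gene were left out, and reads in no gene were 10.6% to 12.4% of root total RNA and 3.84% to 4.26% of root mRNA. Levels are CPM of sense totals, while fold changes use TMM scaling. Each comparison was fitted over all genes with edgeR 4.0.16 (filterByExpr, minimum count 10 and minimum total 15, robust quasi-likelihood) in R 4.3.3 and called at an adjusted p under 0.05. DESeq2 1.42.0, other scalings, no filter, a replicate block and leaving out each library were tried. The fit was tested on simulated data. The members, lists and spans were chosen with earlier results of these data known. Genes named were the 8 with the most reads in drought root total RNA, the 2 largest rises and falls per total RNA drought comparison among members that passed the test and whose groups did not overlap, those at each threshold, the 2 highest in each short-term control tissue and the 2 with the most antisense or intron reads. Potri.007G002300 and Potri.005G106600 were chosen after their values were seen. Product groups and tissue markers could not be checked without gene names.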

Additional observations from a re-analysis of the deposited data

Results flagged for a closer look

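The drought change of these members differed between short-term apex and mature leaves by edgeR's interaction term at an adjusted p under 0.05; each value is the apex log2 change minus the mature leaf log2 change. The difference was -2.79 for Potri.014G040900, -2.63 for Potri.013G092500, -2.45 for Potri.011G074200, -2.44 for Potri.011G075000 and -1.77 for Potri.002G211600, and these 5 stayed past the threshold under all 13 alternatives. The others lost the call under 2 to 8 of the 13. It was -2.17 for Potri.001G153500, -1.57 for Potri.002G211500, -1.004 for Potri.011G074400 and -0.94 for Potri.002G211700. It was 1.54 for Potri.013G143200, 1.44 for Potri.008G107400, 1.29 for Potri.T005700 and 0.92 for Potri.019G032400. Potri.011G075000, Potri.001G153500, Potri.002G211500 and Potri.002G211700 were chosen after their values were seen.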

How the results depend on the processing

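Leaving out 1 library at a time gave 153 to 160 members higher in drought root total RNA than mRNA, 2 to 21 called for drought in root total RNA and 0 to 7 in root mRNA, 56 to 101 in the apex after 24 hours, 0 to 40 in the mature leaves of that experiment, 93 to 109 between control apex and mature leaves, and 23 to 68 for the apex drought change against the leaf one. The member number was 157 and 164 without either title number. Library totals in place of TMM gave 13 in root total RNA, beside 27.0% of all genes. DESeq2 gave 40 in mature leaves and 6 in root mRNA, beside 21.4% and 31.7% of all genes. A pseudocount of 0.5 left 106 members, all among the 161. The cause of these moves was not tested. The other alternatives stayed within 1.5 times. Libraries share title numbers, and the labels do not say that a number pairs them. With the number as a replicate block, 160 members were called between drought root total RNA and mRNA, beside 65.1% of all genes (17735, against 6263 without the block). Between control apex and mature leaves the block gave 97 members, beside 55.2% of all genes. Leaving out 1 drought root library left far fewer of all genes called between total RNA and mRNA, while nearly all members still were. Deviations from group means of same-numbered libraries correlated at 0.853 and 0.0332 across genes in these 2 comparisons. Among 67 gene results over 674 alternatives, 563 kept their call, 110 kept the direction and lost the call, and 1 turned: Potri.013G092500 in apex against mature leaves, at 0.013 (log2) with library totals. With 2 libraries a group, leaving 1 out assumes that the lone library varies like the others.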

Other observations

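Potri.011G074200 had 1.82 to 2.02 times the CPM of Potri.013G092500 across the 4 root total RNA libraries, 2.63 to 3.56 times across the 8 short-term total RNA libraries, and 13.4 to 59.2 times across the 16 mRNA libraries. For Potri.T005800 over Potri.012G062600 the ratio was 1.17 to 1.33 in root total RNA, 0.875 to 1.46 in the short-term libraries and 0.838 to 1.83 in mRNA. The pairs were picked with their values in view, and reads shared between similar genes were not tested.

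The intron sense counts of Potri.018G115300 were 0 in all 4 short-term apex libraries and 9332, 10374, 8999 and 25929 in the short-term mature leaf libraries, while its sense gene counts ran between 85237 and 312591 in those 8 libraries. Intron values of the short-term libraries were therefore used for no other statement.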
